A study of Arabidopsis thaliana with 4 samples.

Results

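The sites described here are peaks of the DELLA protein RGA that lay deep inside protein-coding genes of Arabidopsis thaliana and were called with the wild-type protein but not at the same place with a mutant protein. They were chosen from the deposited peak lists of a FLAG chromatin immunoprecipitation sequencing (ChIP-seq) experiment. A site was taken when its wild-type interval overlapped no mutant interval by even 1 bp, and when its summit lay inside a nuclear protein-coding gene and more than 500 bp from both ends of every such gene holding it. This gave 1266 sites among 6116 wild-type peaks, a share of 20.7% (exact 95% interval 19.7 to 21.7%). The mutant list held 505 peaks, and 5827 wild-type peaks (95.3%) overlapped none of them, so the sites are 21.7% of all wild-type-only peaks. Because the peak calls themselves chose the sites, their fold and their absence from the mutant list describe the selection and were not tested.

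DELLA proteins are nuclear repressors of growth of the GRAS family. Gibberellin (GA) leads to their destruction through the F-box protein SLY1, so a sly1 mutant retains DELLA protein. They have no DNA-binding domain of the usual kind and reach chromatin together with transcription factors, and most described DELLA target sites lie in promoters upstream of the gene. The series title places the PFYRE subdomain of the DELLA protein and its contact with histone H2A at the centre of the study, and the comparison of a wild-type with a mutant RGA addresses whether chromatin association depends on the protein region that the mutant changes.

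The series has 4 libraries, all from whole seedlings grown for 10 days in continuous light on plates, fixed with 1% formaldehyde for 20 min and precipitated for 2 h with FLAG-M2 beads. FLAG-tagged wild-type RGA and FLAG-tagged mutant RGA (rga11) were each carried in the background labelled sly1 dP. The control of the mutant call was labelled sly1 dP, and that of the wild-type call RGA sly1 dQ, so by the labels the controls of the 2 calls differ in genotype. The deposited mutant list names its control differently, and which library it was is unsettled. The sly1 background is common to all 4 groups. Neither the promoter that drives the tagged protein nor the number of transgenic lines is given in the sources used here, and dP and dQ are not spelled out there. With 1 library in each group nothing below has a replicate error. Intervals cover counting error only, and no p-value was computed. In whole seedlings a site occupied in few cells and one weakly occupied in many cannot be told apart.

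No genome sequence and no exon or strand annotation was used, so the sites are placed by position within the gene and not as exonic, intronic or UTR. Coordinates are those of the deposited peaks, on TAIR10.

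The sites were mostly modest in height. The fold, the ratio of ChIP to control coverage that the authors' peak caller gave for the summit, had a median of 2.16 and ran from 1.72 at the 10th percentile to 2.86 at the 90th, with extremes of 1.26 and 6.73. The median site held 64 ChIP fragments over its summit, was 237.5 bp wide and had a −log10 q of 5.55. Wild-type-only peaks inside a gene but within 500 bp of an end had a median fold of 2.27, and those outside genes within 1 kb had a median of 2.78. A fold of 3 or more was reached by 91 sites (7.19%), against 10.3% of the 2504 near-end peaks and 38.0% of the 1344 outside peaks. Tall peaks were thus a smaller share of the deep sites than of the peaks beside genes.

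The control library carried more signal at these sites than beside genes. At the summit the control level was 1.91 times the genome background of the call in the median, against 1.70 times near gene ends and 1.43 times outside genes within 1 kb. It exceeded 2 times background at 47.2% of the deep sites and at 21.7% of the outside peaks. Fold and control level were tied by construction of the call, since the least fold that passes is lower where the control level is higher. The median fold of the deep sites was 2.52 at a control of at most 1.25 times background and 1.62 above 5 times.

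**Figure D1:**
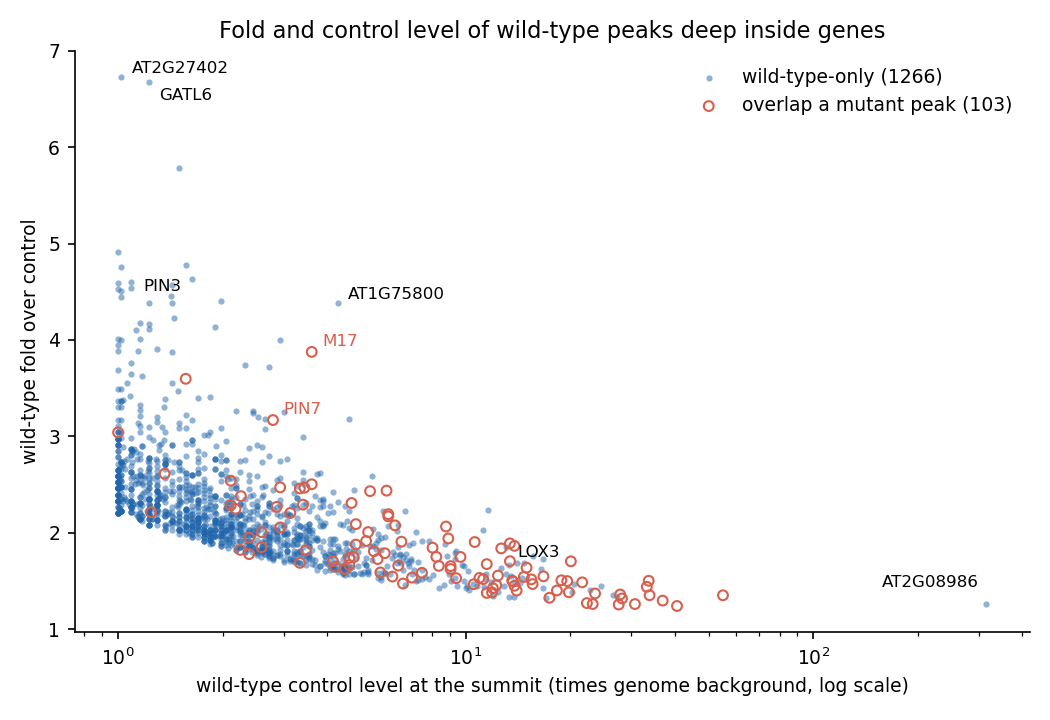
Wild-type fold over control (vertical axis) against the control level at the summit in multiples of the genome background (horizontal log axis) for each of the 1266 wild-type-only deep sites (blue points) and the 103 deep wild-type peaks that overlap a mutant peak (open red circles). The tall sites sit near background, the lower edge of the cloud is the calling limit, and most circles lie on the right, where the median control level is 8.03 times background.

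Beyond 250 bp from a gene end, the summits thinned out toward the interior. Counted per megabase of gene sequence at the same distance from the nearest gene end, wild-type-only summits numbered 81.5 in the outermost 250 bp (exact Poisson interval 76.7 to 86.5), 117 between 250 and 500 bp (111 to 124) and 60.2 between 500 and 750 bp (55.5 to 65.1). The density then went down to 33.5 between 750 and 1000 bp, 23.3 up to 1500 bp, 16.2 up to 2000 bp, 9.41 up to 3000 bp and 6.21 farther in. The intervals of neighbouring bins did not overlap as far in as 2000 bp, and those of the last bins did. Sequence outside genes held 37.6 wild-type-only summits per megabase, so the stretch from 750 to 1000 bp inside genes, with an interval of 29.7 to 37.6, came close to it, and deeper stretches lay under it. In all, 626 of the 1266 sites were within 750 bp of an end, and the median distance was 755 bp against 1030 bp for all gene bases more than 500 bp inside. Bases far inside exist only in long genes, so distance and gene length are confounded in these bins. Per megabase of deep sequence, genes of 1002 to 1500 bp held 95.9 sites. Genes of 2001 to 3000 bp held 41.0, and those of 6001 bp or more held 8.74. The part of gene length in the thinning was not tested.

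Height followed another course than density. Sites with a fold of 3 or more were 4.79% of those between 500 and 750 bp inside and 4.68% of those between 750 and 1000 bp. Their share was 11.3% (27 sites) up to 1500 bp, 17.9% (14 sites) up to 2000 bp and 21.2% (7 of 33) up to 3000 bp. None of the 11 sites more than 3000 bp inside reached it. The median control level went down over the same range, from 2.11 times background between 500 and 750 bp to 1.43 times between 1500 and 2000 bp. Whether the lower control accounts for the taller peaks was not tested.

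**Figure D2:**
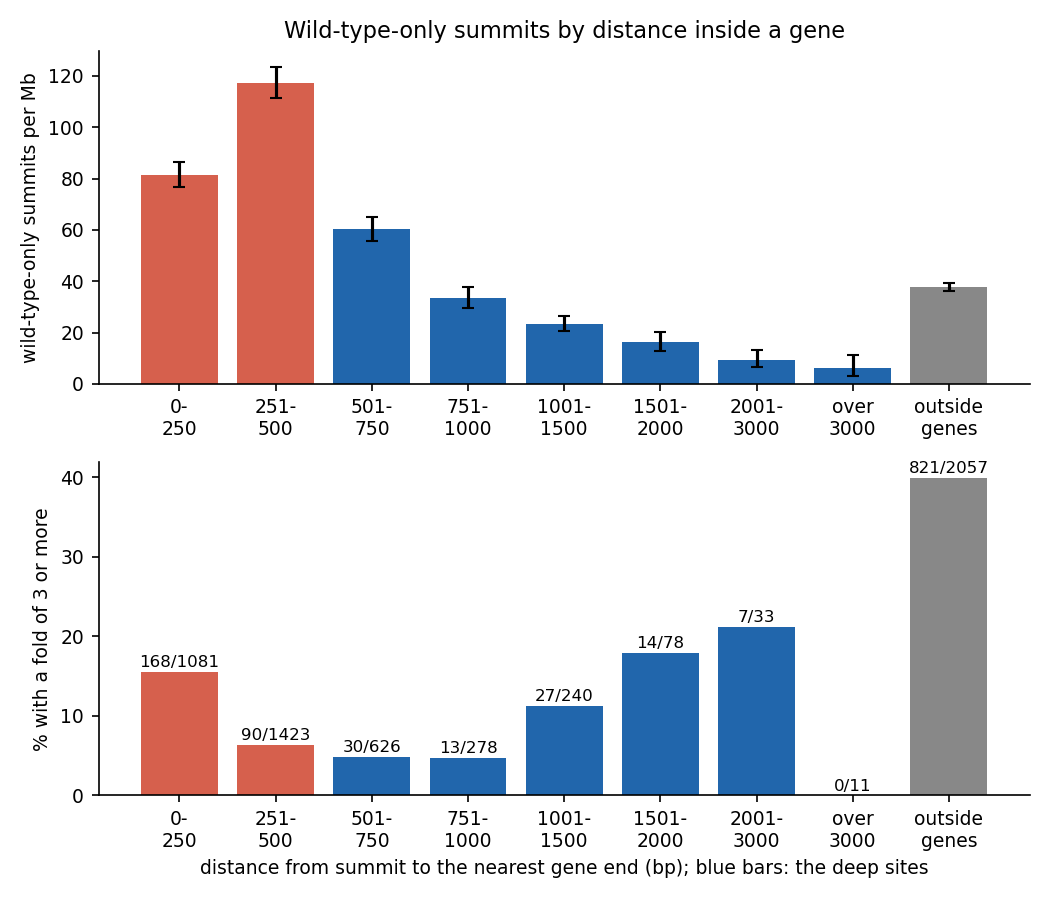
Upper panel, wild-type-only summits per megabase of sequence at each distance from the nearest gene end, with exact 95% Poisson intervals as error bars; lower panel, the percentage of those summits with a fold of 3 or more, with the counts above each bar. Blue bars are the deep sites, red bars the near-end peaks and grey bars sequence outside genes; density goes down from 60.2 to 6.21 across the blue bars while the share of tall peaks goes up to 21.2% before the last bin of 11 sites.

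The 500 bp limit cut through a continuous distribution. Just inside it were a site of ZF1, a zinc finger gene, 501 bp deep with a fold of 1.69, and sites of AT1G74050 and AT1G80180, each 502 bp deep with folds of 2.62 and 2.38. Just outside it, at 500 bp, were wild-type-only peaks of AT1G62370 (fold 2.11), SLD1 (1.41), RAP2.9 (2.21) and XK-2 (2.01).

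The tallest site was in AT2G27402, at chr2:11723318-11723571. Its summit lay 629 bp inside a gene of 1631 bp and held 105 ChIP fragments over a control level of 14.8, a fold of 6.73. GATL6, which encodes a galacturonosyltransferase-like protein of the cell wall, held the next at chr4:945329-945543, with 124 ChIP fragments over 17.7 and a fold of 6.68, 1093 bp inside a gene of 2926 bp. In both, the control was near the genome background of 14.5, and the nearest mutant summit was 30106 bp and 87760 bp away.

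The third to the tenth were in genes of several kinds. ATMAP65-6, which encodes a microtubule-associated protein, had a fold of 5.79 (130 fragments over 21.6, chr2:416575-416815). WRI1, the AP2-type transcription factor that controls seed oil synthesis, had 4.92 (75 over 14.5, chr3:20116917-20117165). IDD5, a zinc finger factor of the INDETERMINATE DOMAIN family, had 4.78 (112 over 22.6, chr2:509660-509991). DELLA proteins are known to act with IDD factors. The cell wall acetylation gene TBL10 had a fold of 4.76 (chr3:1836432-1836703), and AT5G20110 had 4.63 (chr5:6791808-6792300). PIN3, an auxin efflux carrier of tropic growth, had 4.6 (76 over 15.7, chr1:26745161-26745508). CKS, the enzyme that activates the pectin sugar KDO, had 4.59 (chr1:19746844-19747226), and NHX2, a vacuolar cation/proton antiporter, 4.57 (chr3:1395914-1396164). All 10 had a control level of at most 1.63 times background, and none had a mutant summit within 1 kb of its gene.

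The 5 sites farthest from both ends were of ordinary height. AT1G58602, a gene of 19695 bp, held 2 of them, 6085 bp and 4799 bp inside, with folds of 2.06 and 2.07. DEK1, which encodes a membrane calpain of epidermal development, held a site 4300 bp inside with a fold of 2.67, on 41 fragments. GLT1, the NADH-dependent glutamate synthase, held one at 4285 bp with a fold of 2.31, and AT5G07740 one at 3908 bp with a fold of 1.80.

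At the other extreme of control signal, the site of AT2G08986 held 5741 ChIP fragments over a control level of 4551, which is 315 times background, for a fold of 1.26, the lowest of all 1266. The next highest control levels were at AT2G07777 (27.2 times), RBOHD (26.5 times), which encodes an NADPH oxidase of immune and wound signalling, RAP2.4 (24.4 times) and the polyubiquitin gene UBQ11 (22.8 times), with folds of 1.33 to 1.45. These 5 were singled out after their values were seen. In each, many ChIP fragments stood over a control that was itself many times background.

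Few mutant summits lay near the sites, and the rule had already removed every peak overlapping a mutant interval. The nearest mutant summit was a median of 76774 bp from a site. It lay within 500 bp of 4 of the 1266 sites (0.32%) and within 1000 bp of 27 (2.13%). Near-end wild-type-only peaks gave 0.48% and 1.52%. Within 5000 bp the shares were 7.82% and 5.47%, and the exact intervals overlapped at each of these distances. The closest pair was in AT1G78040, 340 bp apart. Of the 1160 genes holding a site, 44 (3.79%) had a mutant summit elsewhere inside the gene, against 1.32% of all 23055 coding genes of 1002 bp or more, the shortest that can hold such a site. That reference was not matched for gene length or naming. With 1 kb on either side included, 58 of the 1160 genes had a mutant summit (5.0%), against 1.87% of all. BXL1, a cell wall xylosidase with a site of fold 4.53, was one of them, with a mutant summit 873 bp from the site.

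Overlap with mutant peaks differed between positions. Of 1369 deep wild-type peaks, 103 overlapped a mutant peak (7.52%, 6.18 to 9.05%), against 4.54% (3.77 to 5.40%) near gene ends and 2.4% (1.66 to 3.35%) outside genes within 1 kb. Farther than 1 kb from genes it was 4.55% (3.17 to 6.30%), an interval that overlaps that of the deep peaks. Within the deep peaks the share was 8.48% between 500 and 750 bp, 8.85% up to 1000 bp and 5.88% up to 1500 bp, then 2.5% (2 overlapping peaks) up to 2000 bp, 2.94% (1 peak) up to 3000 bp and 0 of 11 beyond. Deep positions were 46.1% of the 219 mutant summits whose peak overlapped no wild-type peak. The 103 shared peaks had a median of 208 ChIP fragments and a control level of 8.03 times background, with a median wild-type fold of 1.70.

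Overlap with the mutant list went up with the control level. Among deep wild-type peaks it was 0.70% (2 of 285) where the control was at most 1.25 times background and 0.52% (2 of 387) up to 2 times. It was 4.56% up to 3 times, 7.69% up to 5 times and 36.1% (69 of 191) above 5 times. Near-end peaks at the same levels gave 0.66%, 1.13%, 3.43%, 8.54% and 32.4%, and the exact intervals of deep and near-end peaks overlapped at each level. The lowest levels held 2 overlapping deep peaks each, and the part of control level in the difference between positions was not tested.

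**Figure D3:**
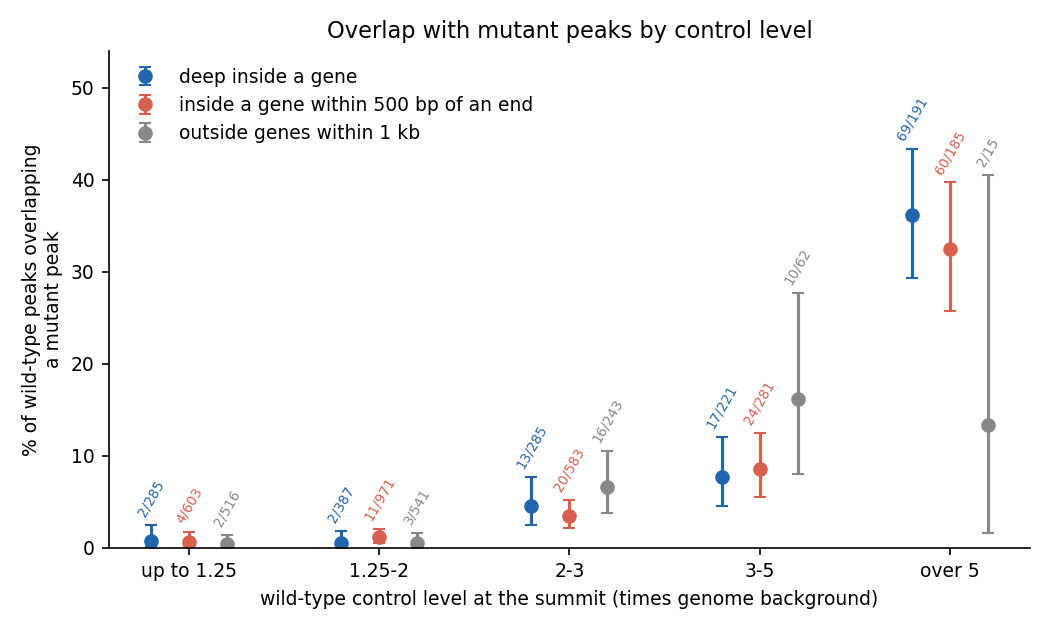
Percentage of wild-type peaks that overlap a mutant peak (vertical axis) by wild-type control level in multiples of the genome background (horizontal axis), with exact 95% binomial intervals and the counts above each point. Blue is deep inside genes, red near a gene end and grey outside genes within 1 kb; blue and red go up together, from under 1% at background to 36.1% and 32.4% above 5 times background.

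Some shared peaks stood as tall as the sites. M17 had the highest wild-type fold among them, 3.88, with 2.11 in the mutant list, and AT1G09390 had 3.6 and 3.04. PIN7, the close relative of PIN3, had a wild-type fold of 3.17 and a mutant fold of 3.01, with summits 5 bp apart, 1262 bp inside the gene. PIN3 and PIN4 held wild-type-only sites at like distances, 1250 and 1090 bp, with folds of 4.6 and 3.08. M17, AT1G09390 and PIN7 were picked by wild-type fold. At most of the shared deep peaks the mutant fold was the higher, as at SYP121 (wild type 1.45, mutant 2.86). The limits of the calls differed, as described below. The RGA gene itself, listed as RGA1, held a shared peak with a wild-type fold of 2.19 and a mutant fold of 3.03, whose summits were 1067 bp apart. Both lines carry a tagged copy of RGA, so DNA of that copy and of the gene cannot be told apart in this peak.

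The 2 calls differed in what they could detect. The wild-type call had a genome background of 14.5 and that of the mutant 7.21, and the lowest listed −log10 p was 5.05 and 6.03. A site at background therefore had to reach 2.2-fold to be listed for the wild-type protein, against 2.92-fold for the mutant one. A fold at or over 2.92 was reached by 106 of the 1266 sites (8.37%), and 57 of these had a control of at most 1.25 times background. Where the control is higher, a lower fold passes, so this count is not the number that could be listed. When each site's ChIP and control levels were scaled to the mutant background and held to the lowest p of the mutant list, 282 sites passed (22.3%, 20.0 to 24.7%), against 24.9% of the near-end and 51.5% of the outside wild-type-only peaks. With the coverage scaled alone and the p limit of the wild-type list kept, 441 sites passed, and with the p limit of the mutant list alone, 1015. The scaling carried over the wild-type control level at each site, and the mutant control there was not used. Under this scaling and both limits together, the other sites would not have been listed even at the wild-type fold. For them the absence of a mutant peak does not tell a lost site from one below the limit. The 10 tallest sites, which were picked for their fold, all passed.

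The sites were spread over many genes. Of the 1160 genes, 1058 held 1 site, 92 held 2, 9 held 3 and 1 held 4, and 7 sites lay in 2 overlapping genes. Neighbouring sites of 1 gene were a median of 815 bp apart over 113 such gaps. By chromosome the density ran from 31.0 to 34.0 sites per megabase of deep gene sequence over the 5 nuclear chromosomes, with overlapping intervals. A gene that is not protein-coding lay under the summit of 41 sites (3.24%, 2.33 to 4.37%), mostly lncRNA genes (34), while such genes cover 1.56% of the deep gene sequence. Their median fold was 2.22, against 2.16 at the other sites.

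AT3G44610 held the most sites, 4 in 4237 bp. Counted from the gene end of lower coordinate, they lay at 1401, 2386, 3525 and 3718 bp with folds of 3.15, 3.64, 1.82 and 1.63. Among genes with 3 sites, NRT1.1, the nitrate transporter and sensor, had folds of 1.85, 4.17 and 2.22 at 1297, 1924 and 2737 bp. The catalase gene CAT3 had 4.10, 1.96 and 1.66. MEE62 had 1.92, 4.18 and 2.44. In each of these 3 genes 1 site stood well over the others in fold. That site had the lowest control level of the 3 in its gene. The ChIP fragments were 70, 77 and 58 in NRT1.1, 70, 54 and 92 in CAT3, and 50, 73 and 59 in MEE62. The control fragments were 37.4, 17.7 and 25.6 in NRT1.1, 16.3, 27.1 and 55.1 in CAT3, and 25.6, 16.7 and 23.6 in MEE62. KUP6, a potassium transporter gene, had 1.85, 2.49 and 2.39. PEN3, which encodes the ABC transporter ABCG36, had 1.53, 1.42 and 1.71 over control levels of 14.5, 9.99 and 6.97 times background. In AT1G05805, AT1G58602, AT3G14067 and AT4G12290, also with 3 sites each, the highest fold was 2.75.

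**Figure D4:**
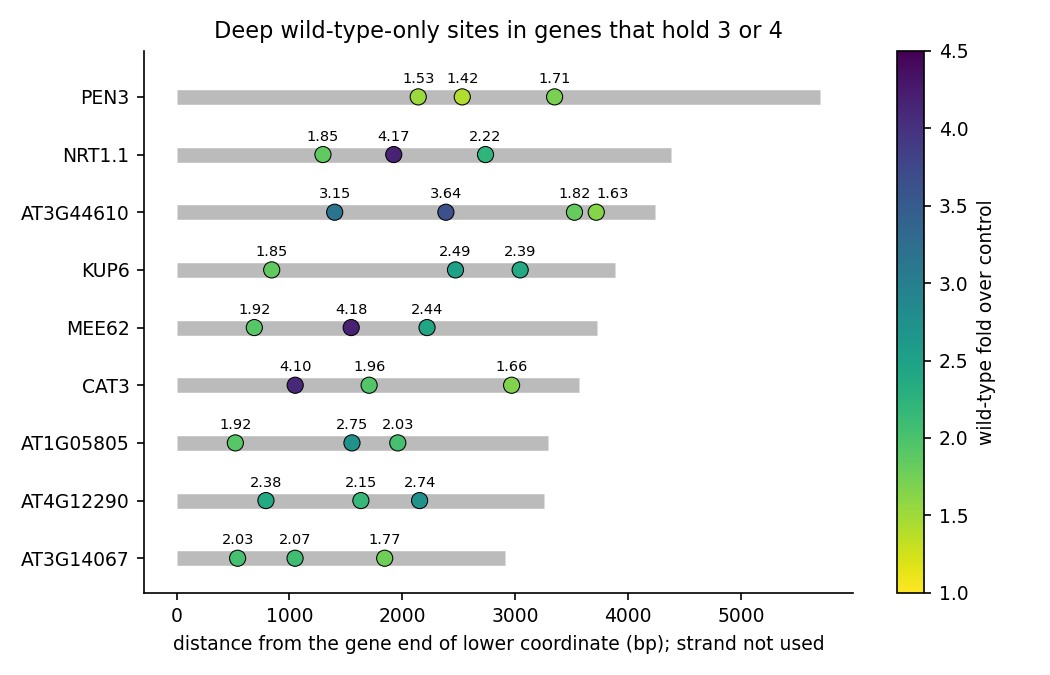
Positions of the sites in 9 of the 10 genes that hold 3 or more, drawn to scale as distance from the gene end of lower coordinate (strand was not used), with the fold printed above each point and given by its colour. AT1G58602, 19695 bp long, is left out for its length; NRT1.1, MEE62 and CAT3 each show 1 site of fold over 4 beside lower ones.

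Genes with a site often had other wild-type peaks too. The reference was all coding genes of 1002 bp or more, not matched for length or naming. Another wild-type summit lay inside the gene within 500 bp of an end in 16.6% of the genes with a site, against 9.87% of all. One lay outside within 1 kb in 19.7%, against 13.0%. Either was present in 32.3% (29.6 to 35.1%), against 21.2%. The remaining genes held the deep site with no wild-type summit at or beside an end.

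Of all coding genes of 1002 bp or more, 5.03% held a site, and the share depended on length and naming. It was 2.43% at 1002 to 1500 bp, 4.73% up to 2000 bp, 5.45% up to 3000 bp and 6.67% (5.90 to 7.52%) up to 4000 bp, then 5.95% and 5.23% in the longer classes. Genes with a symbol held a site in 6.27% of cases (609 of 9706) and those known by locus tag alone in 4.13% (551 of 13349). The median control level of the sites was 2.65 times background in the shortest class and 1.5 times between 4000 and 6000 bp. The gene lists below consist of named genes, mostly long ones, so the 5.03% is a low reference for them.

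**Figure D5:**
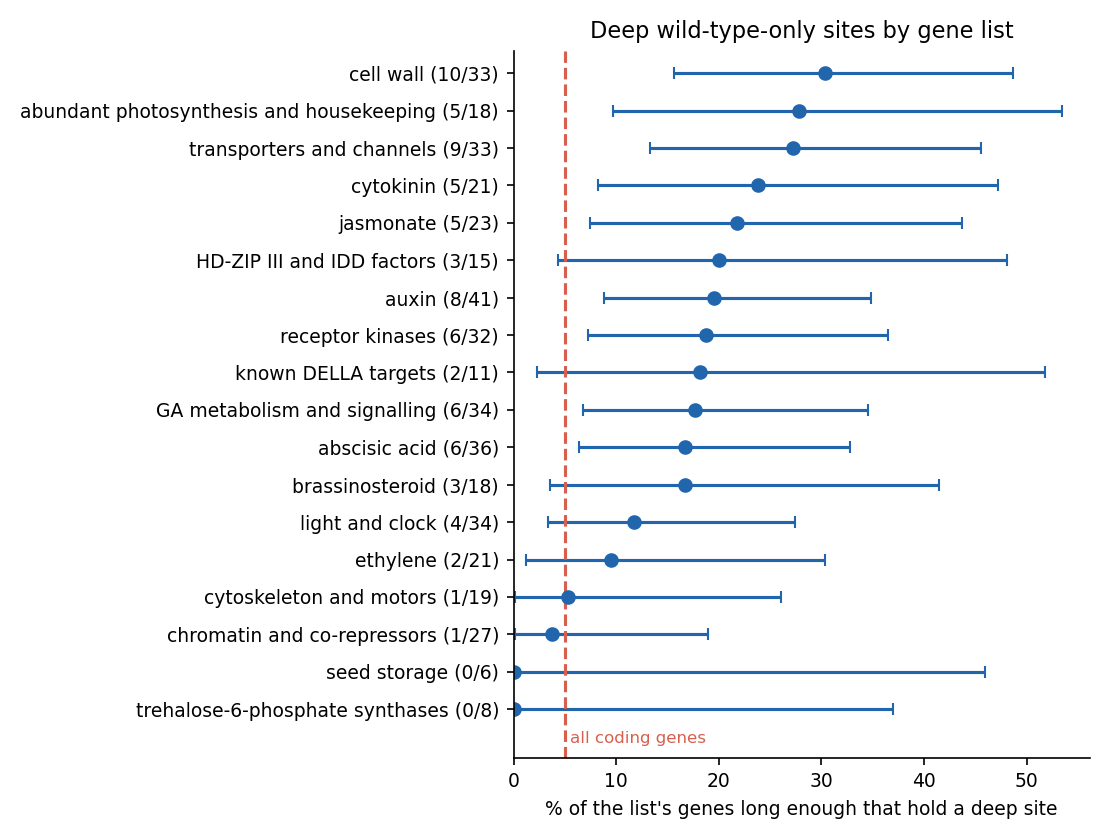
Percentage of each list's genes of 1002 bp or more that hold a wild-type-only deep site (horizontal axis), with exact 95% binomial intervals, and the number holding a site over the number measured beside each list name. The dashed line is the share of all coding genes, 5.03%; the list of abundant photosynthesis and housekeeping genes, at 5 of 18, lies near the top with cell wall genes, at 10 of 33.

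GA genes held sites in 6 of 34 cases, with a median fold of 1.96 over their 7 sites. GA2OX8, which encodes a GA-inactivating oxidase, stood apart with a fold of 4.54 on 75 ChIP fragments over a control of 15.7, 1954 bp inside the gene at chr4:11304616-11304910. Its relatives GA2OX2 and GA2OX6 had 1.97 and 1.80. The F-box gene SLY1 held a site of fold 2.34, in a line that is mutant for it. The DELLA genes RGL1 and RGL2 held 1 and 2 sites with folds of 1.76 to 1.96 over controls of 2.72 to 3.47 times background. Of the 7 sites, that of GA2OX8 was the only one to pass the limits of the mutant call. Of 11 known DELLA targets long enough, 2 held a site, the expansin gene EXPA8 (fold 2.74, 598 bp inside) and IQD22 (2.49, 741 bp inside), and both passed the limits of the mutant call. This list was added later than the others, and its EXPA8 site is also counted in the cell wall list.

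In the auxin list 8 of 41 genes held a site. They were mostly transport genes, PIN3, PIN4, the influx carrier AUX1 (fold 2.76) and the transporters ABCB4 (1.76) and ABCB19 (2.08 and 1.82), beside the response factors ARF3 (2.41), ARF10 (2.44) and ARF16 (2.17). Of these, PIN3, the taller site of PIN4, and ARF10 passed the limits of the mutant call. Brassinosteroid genes had a site in 3 of 18 cases. Both P450 enzymes among them, ROT3 of hormone synthesis and BAS1 of hormone inactivation, had folds of 2.88 and 2.91 on 101 and 108 fragments and passed. The receptor gene BRI1 had 1.94 and did not.

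Cytokinin genes held a site in 5 of 21 cases. The receptor gene AHK4 had a fold of 4.12 (76 fragments over 17.7, chr2:368892-369037), and its relative AHK3 had 2.3. The cytokinin oxidase genes CKX7 and CKX3 had 3.09 and 2.33, and IPT5, a gene of cytokinin synthesis, 1.89. AHK4 and the taller CKX7 site were the 2 that passed the limits of the mutant call.

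Jasmonate genes differed from the other lists in their control signal. The 5 of 23 with a site were the lipoxygenase genes LOX3 and LOX4, AOS and OPR3 of jasmonate synthesis, and MYC2, the central transcription factor. The site of MYC2 also lay inside the overlapping gene AT1G32630. Their 6 sites had a median control level of 15.1 times background and folds of 1.33 to 1.85. LOX3 had 386 fragments over a control of 238 at 1 of its sites, for a fold of 1.62. OPR3 had the highest fold, 172 fragments over a control of 92.5, at the lowest control level of the 5 genes, 6.4 times background. The part of the control signal in these calls was not tested. On their many fragments both LOX3 sites and those of LOX4 and OPR3 passed the limits of the mutant call.

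Abscisic acid genes held a site in 6 of 36 cases. NCED3, of abscisic acid synthesis, had 2.08 on 193 fragments, over a control of 6.4 times background. PYL6, a receptor, had 2.3, the transcription factor ABF4 2.22 and the inactivating enzyme CYP707A1 2.09. NCED3 and PYL6 passed the limits of the mutant call. Ethylene genes had 2 of 21, both ACC synthases, ACS2 (2.4) and ACS7 (2.24). Light and clock genes had 4 of 34: PHOT1 (2.57), PIF3 (2.07), TOC1 (1.91) and PHYB (1.90). None of these 4, and neither of the ACC synthases, passed the limits of the mutant call.

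Cell wall genes had the highest share of any list, 10 of 33 (30.3%, 15.6 to 48.7%), at a median fold of 2.43. After GATL6 the tallest were the mannan synthase genes CSLA2, with 4.01 (70 fragments over 16.7, 2426 bp inside), and CSLA9, with 3.14 (2094 bp inside). Both lay more than 2000 bp from the gene ends. EXPA8 and the cellulose synthase gene CESA2 followed with 2.74 and 2.71. GATL1, a relative of GATL6, had 1.57 over a control of 8.98 times background. Of the 10 genes, 4 passed the limits of the mutant call, GATL6, CSLA2, CSLA9 and EXPA8.

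Transporter and channel genes had 9 of 33, at a lower median fold of 1.92. After the tallest NRT1.1 site came ABCB2 (2.56) and AHA1 (2.52), a plasma membrane proton pump, with AHA2 at 2.06. In 4 of the 9 genes a site passed the limits of the mutant call. Receptor kinase genes had 6 of 32, led by the immune receptor gene EFR (2.98), HSL2 (2.3) and ACR4 (2.08), and none of their 7 sites passed the limits of the mutant call. The list of HD-ZIP III and IDD factors had 3 of 15. The neighbouring genes IDD5 (4.78 and 2.21) and IDD4 (2.46 and 2.27) held 2 sites each. SHR, a GRAS gene also placed on this list, held 1 (2.03), and no HD-ZIP III gene held any. Of these 5 sites the taller one of IDD5 passed.

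Abundant photosynthesis and housekeeping genes, listed for comparison, had 5 of 18 (27.8%, 9.69 to 53.5%). CAT3 led them, followed by the Rubisco activase gene RCA (2.11) and the Calvin cycle gene PRK (2.01), and the light-harvesting gene CAB3 had 1.63. Of all their sites, the tallest of CAT3 passed the limits of the mutant call. Their share was no lower than that of the hormone lists. Few or no sites lay in genes of chromatin and co-repressors (1 of 27, TPR4, fold 2.33), of the cytoskeleton and motors (1 of 19, TUB6, fold 2.21), of trehalose-6-phosphate synthesis (0 of 8) and of seed storage (0 of 6). The sites of TPR4 and TUB6 did not pass.

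Gene families formed by name, a grouping made after the sites had been seen, gave a similar spread. Cellulose synthase-like genes held a site in 8 of 32 cases, nitrate transporter families in 8 of 36, expansins in 5 of 24 and the TBL wall acetylation family in 6 of 45 at a median fold of 2.91. Cytochromes P450 had 20 of 245, near the 6.27% of named genes. Factors of the MYB family had 3 of 124, ABC transporters 5 of 125, xyloglucan-modifying XTH genes 1 of 33 and RAB GTPases 0 of 57.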

How the data were processed

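ChIP-seq was done on 4 libraries, 1 per group, and the 2 deposited peak lists were used. The controls entered through the authors' calls. Peaks were called per line, as far as the labels say. Trimmomatic 0.39, Bowtie2 2.4.5, MACS2 2.2.7.1 and TAIR10 are named in the submitters' processing notes. The deposited fold is a ratio of ChIP to control coverage at the summit, with the caller's pseudocount of 1. The −log10 p and −log10 q are likewise deposited values of the authors, and the deposited score was not used. Peak numbers run to 7873 and 778, above the number of peaks listed, and neither labels nor files say what removed the others.

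Solving fold and −log10 p together gave whole ChIP fragments and the control level at each summit, with a −log10 p within 0.001 of the authors' deposited one at 1265 of 1266 sites. For AT2G08986 the difference was larger. The lowest solved control level was taken as the wild-type genome background, and the level shared by the most peaks (50) as that of the mutant. The solver and the site rule were checked on simulated data. Read totals were not analysed here.

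Genes came from RefSeq on TAIR10.1, whose 5 nuclear chromosomes were taken to share coordinates with TAIR10. That table has no strand, exons or sequence, so the motif, strand and exon parts of the plan were left out. Shares have exact Clopper-Pearson and densities exact Poisson intervals at 95%. The named genes were the 10 tallest and 5 deepest sites, genes with the most sites, up to 3 genes per list, those at the 500 bp limit and the tallest shared peaks. The plan was for the 5 genes with the most sites, but 9 genes tied at 3 sites. Those given in full were picked after their values were seen. The other genes named were chosen after their values were seen. The members and lists were chosen with earlier results of these data known; the list of known DELLA targets was added later. Python 3.11.15, pandas 2.3.3 and scipy 1.17.1 were used.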

Additional observations from a re-analysis of the deposited data

How the results depend on the processing

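The number of sites, their share of wild-type peaks, the median fold, the median ChIP fragments and the number of genes stayed within 1.5 times the reported count, or inside the interval of the reported value, when no mutant summit within 500 bp or no mutant interval within 1000 bp was allowed (1267 and 1225 sites). With a control of at most 5 times background, 1144 sites remained and the medians, 2.21 and 61 fragments, fell outside the reported intervals. A limit of 250 bp gave 2689 sites (44.0%) in 2450 genes, at medians inside the reported intervals (2.19 and 63), and 1000 bp gave 362 (5.92%) in 334 genes, with medians of 2.3 and 59. A −log10 q of at least 5 gave 737 sites (17.4% of the peaks that passed) in 702 genes, with medians of 2.35 and 75. A −log10 q of at least 10 gave 215 (12.0%) in 212 genes, with 2.75 and 98. The wild-type peaks above the median fold of their list gave 394 (12.9%) in 381 genes, with 2.66 and 56. A control of at most 2 times background gave 668 (17.3%) in 638 genes, with 2.37 and 50. The coverage and p limit of the mutant call gave 282 (12.9%) in 278 genes, with 2.62 and 94. In 2 settings chosen after seeing the data, the coverage of the mutant call at the p limit of the wild type gave 441 (14.9%) in 426 genes, with 2.5 and 86, and the p limit of the mutant call alone gave 1015 (19.3%) in 949 genes, with 2.25 and 68. Those on q, p, fold, control and coverage select on the measured values by construction. Of 60 values of the site number, share, medians and gene number over all settings, 43 moved beyond the limits given at the start. Of 216 counts for gene lists, 97 moved by over 1.5 times.

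No paired analysis was possible because each group has 1 library, so no replicate was left out. The position of sites along the transcript and the motif searches were not run, since no strand or sequence was used. At the coverage and p limit of the mutant call, a lost site and one of low fold cannot be told apart.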
